A study of Mus musculus with 12 samples.

Results

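The regions described here are 10 kb bins of the mouse genome that carried a value for acetylation of histone H3 at lysine 27 (H3K27ac) 24 h after induction of a KLF knockout and none before induction (0 h). They were selected on that measured value at both times, so the values that chose them are given as a description and with no test. The selection took 2872 of the 25611 bins valued at 24 h, which is 11.2%, and of 54825 bins in either list. For comparison, 4073 of the 26812 bins valued at 0 h, or 15.2%, had no value at 24 h. Of the 24 h-only bins, 1378 were absent from the 0 h list altogether and 1494 were listed there without a value. A bin without a value was not shown to lack acetylation.

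The study used chromatin immunoprecipitation followed by sequencing (ChIP-seq) in mouse pluripotent cells, with 12 samples in 7 groups. The embryonic stem cells (ESCs), of the V6.5 line, carried a lentiviral, doxycycline-inducible Cas9 with guide RNAs, and puromycin-selected clones were picked by hand. H3K27ac was measured in 2 replicates at 0 h and in 2 replicates after 24 h of doxycycline, with 2 input libraries. Induced pluripotent stem cells (iPSCs) gave 2 replicates for the transcription factor KLF4 and 2 for H3K27ac, each antibody with 1 input library. The labels describe guides against Klf4 alone and guides against Klf2, Klf4 and Klf5 in tandem, and the 24 h titles carry both TKO and KLF4 KO, so the target genes of these samples are not settled. The 0 h cells carried the same inducible vector without doxycycline, so the 24 h cells differed from them in drug exposure and Cas9 expression as well as in the edited genes, and these cannot be told apart. All samples are labelled as cultured in 2i, an inhibitor medium that holds mouse cells in the naive state, and the ESCs were kept on irradiated feeder cells. Each of the 4 ChIP groups was deposited as 1 list with no value per replicate and no read depth, so no replicate error can be given and no test across samples was possible. All 7 naive ESC markers had a value at both times. Of 8 fibroblast, 5 trophectoderm and 4 primitive endoderm markers, 1 in each set had a value at each time, and no marker of these 3 sets touched a 24 h-only bin.

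H3K27ac is placed by the acetyltransferases CBP and p300 on nucleosomes of active enhancers and promoters, and is lost where the activators that recruit them leave or deacetylases act. KLF4 is a zinc-finger factor that binds GC-rich and CACCC-type elements. Together with KLF2 and KLF5 it sustains the naive pluripotency network, in which it occupies enhancers and promoters beside OCT4, SOX2 and ESRRB. The iPSC lists show where KLF4 and H3K27ac lay in another mouse pluripotent cell, and the ESC bins are set against them below.

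The promoters below start in 24 h-only bins. They are shown because they belong to genes of the lists described further on and differ in KLF motif, KLF4 peaks and H3K27ac peaks. Each runs from 250 bases before to 50 bases after the gene start, 5′ to 3′ on the gene's strand, and is RefSeq sequence of build GRCm38.p6, whose primary assembly is that of mm10. Capitals mark matches to a motif on either strand. The motifs searched were a KLF core GGGNGTGG, an AP-1 site TGANTCA, a CRE TGACGTCA and a TATA box TATAAA. Smarcc1, at chr9:110131774-110132073 on the plus strand, holds a KLF core and was covered by 2 iPSC KLF4 peaks and 1 iPSC H3K27ac peak.
Smarcc1: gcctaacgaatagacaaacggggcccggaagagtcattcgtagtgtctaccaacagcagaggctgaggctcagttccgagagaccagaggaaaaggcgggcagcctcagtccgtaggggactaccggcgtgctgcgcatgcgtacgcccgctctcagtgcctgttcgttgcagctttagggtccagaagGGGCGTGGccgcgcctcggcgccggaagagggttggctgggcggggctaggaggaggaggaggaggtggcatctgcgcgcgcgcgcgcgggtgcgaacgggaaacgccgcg
Fbln2, at chr6:91212514-91212813 on the plus strand, holds a KLF core too, but its bin held neither kind of peak.
Fbln2: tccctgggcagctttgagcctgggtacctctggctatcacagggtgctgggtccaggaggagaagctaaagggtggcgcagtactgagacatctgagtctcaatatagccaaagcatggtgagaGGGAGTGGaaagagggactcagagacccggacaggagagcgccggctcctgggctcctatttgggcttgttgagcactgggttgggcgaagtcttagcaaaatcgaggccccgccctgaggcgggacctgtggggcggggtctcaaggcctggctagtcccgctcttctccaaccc
Gadd45g, at chr13:51846425-51846724 on the plus strand, holds a TATA box. The nearest KLF4 peak lay 2498 bp and the nearest H3K27ac peak 76 bp from its start.
Gadd45g: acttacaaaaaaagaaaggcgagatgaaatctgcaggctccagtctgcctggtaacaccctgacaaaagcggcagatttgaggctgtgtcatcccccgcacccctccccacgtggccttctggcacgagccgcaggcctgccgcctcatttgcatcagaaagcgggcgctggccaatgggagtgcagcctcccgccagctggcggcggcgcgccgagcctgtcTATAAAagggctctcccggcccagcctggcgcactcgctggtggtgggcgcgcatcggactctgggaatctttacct
Gadd45a, at chr6:67037358-67037657 on the minus strand, holds none of the 4 motifs. An H3K27ac peak lay 54 bp from its start and the nearest KLF4 peak was 126002 bp away.
Gadd45a: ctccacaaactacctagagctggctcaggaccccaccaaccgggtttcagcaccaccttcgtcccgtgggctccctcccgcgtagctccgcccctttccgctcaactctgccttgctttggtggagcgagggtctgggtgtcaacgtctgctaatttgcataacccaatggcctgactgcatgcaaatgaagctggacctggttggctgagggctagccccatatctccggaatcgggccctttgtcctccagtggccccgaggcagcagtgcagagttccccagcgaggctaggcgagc
Hes5, at chr4:154960673-154960972 on the plus strand, holds none of them either, and KLF4 and H3K27ac peaks lay 3277 and 3189 bp away.
Hes5: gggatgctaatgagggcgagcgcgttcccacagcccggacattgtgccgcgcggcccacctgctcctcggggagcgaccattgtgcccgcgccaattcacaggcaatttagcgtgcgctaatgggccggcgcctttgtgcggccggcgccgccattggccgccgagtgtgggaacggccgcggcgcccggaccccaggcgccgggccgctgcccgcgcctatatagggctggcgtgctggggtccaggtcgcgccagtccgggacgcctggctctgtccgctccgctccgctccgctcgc

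H3K27ac signal was taken from the tenth column of the ESC lists and is on the authors' own scale. The 24 h-only bins had a median of 3.19 (quartiles 2.65 and 3.93, range 1.23 to 22.2). The 22739 bins valued at both times had a median of 4.21 at 24 h (quartiles 3.21 and 5.65). Most 24 h-only bins thus sat in the lower part of the scale: 641 of them, 22.3%, exceeded the median of all bins valued at 24 h, and 67 lay in its top decile. Bins absent from the 0 h list had a median of 3.49 and those listed without a value 2.94. The 24 h-only share of valued bins was 22.7% in the lowest decile of the 24 h value, 12.3% in the fifth and 2.62% in the highest.

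**Figure D1:**
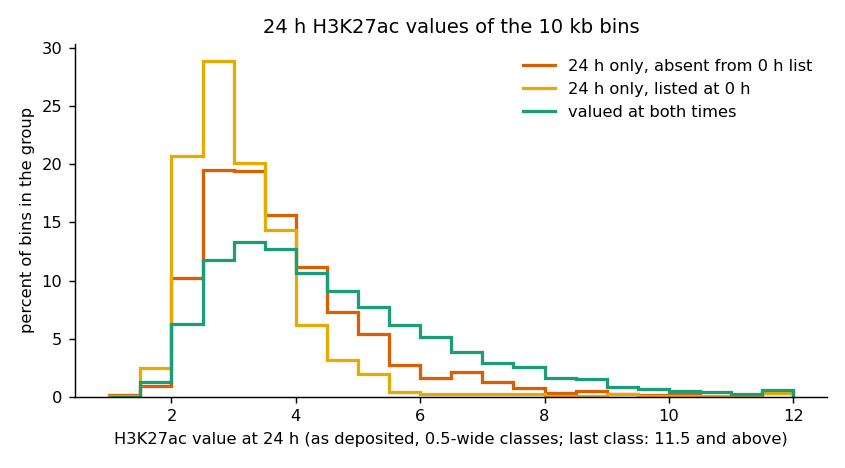
H3K27ac value at 24 h (x axis, as deposited) against the percent of bins in each group (y axis). The 1378 bins absent from the 0 h list and the 1494 listed there without a value are centred lower, with medians of 3.49 and 2.94, than the 22739 bins valued at both times, with a median of 4.21.

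The edge of the selection can be seen from both sides. Just inside lay 3 bins within the Sfi1 gene, with 24 h values of 1.23, 1.25 and 1.25, and a bin in Mier3 with 1.56. Just outside, because they carried a low value at 0 h, lay bins near Duox1 (0 h value 1.503, 24 h value 3.17), Mrps23 (1.67 and 2.54), Slc1a7 (1.69 and 1.84) and Thap4 (1.70 and 4.48). The excluded bins therefore included some with larger 24 h values than the median of the selected ones.

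Of the 24 h-only bins, 439 overlapped an iPSC KLF4 peak by at least 1 bp, which is 15.3% (exact 95% interval 14.0 to 16.7). The share was 39.0% (38.3 to 39.6) in bins valued at both times, 32.4% (31.0 to 33.9) in bins valued at 0 h only and 7.80% (7.47 to 8.14) in bins listed without a value at either time. The 24 h-only bins thus stood between bins without a value and bins valued at 0 h. Intervals cover counting error only, and neighbouring bins are not independent. Bins absent from the 0 h list held KLF4 more often, at 19.8% (17.7 to 22.0), than those listed there without a value, at 11.1% (9.56 to 12.8). The 494 KLF4 peaks involved are 2.29% of all iPSC KLF4 peaks, and their median width was 242 bp against 281 bp for peaks in bins valued at both times. Of the 24 h-only bins 51, or 1.78%, held 2 or more KLF4 peaks. The share was 9.48% in bins valued at both times, 4.96% in 0 h-only bins and 0.839% in bins without a value.

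An iPSC H3K27ac peak overlapped 828 of the 24 h-only bins, or 28.8% (27.2 to 30.5). This compares with 78.8% (78.2 to 79.3) of bins valued at both times, 44.7% (43.2 to 46.3) of bins valued at 0 h only and 2.26% (2.08 to 2.45) of bins without a value. Acetylation of these sites in iPSCs was accordingly more frequent than in unvalued bins and less frequent than in the other acetylated classes. The 2 kinds of 24 h-only bin lay far apart, at 43.8% (41.1 to 46.4) for those absent at 0 h and 15.1% (13.3 to 17.0) for those listed without a value. For the absent bins the share was close to that of all 0 h-only bins, but the 0 h-only bins absent from the 24 h list, which mirror them, reached 59.4% (57.3 to 61.4). Their mirrored KLF4 share was 37.0% (35.1 to 39.0).

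**Figure D2:**
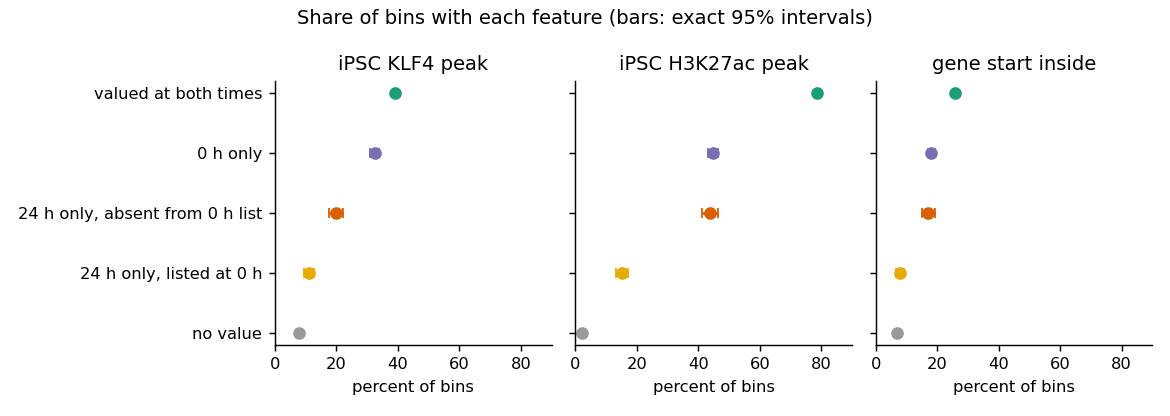
Percent of bins (x axis) with an iPSC KLF4 peak, an iPSC H3K27ac peak or a gene start inside, for 5 classes of bin (y axis). Points are shares and bars exact 95% binomial intervals. Both kinds of 24 h-only bin lie below bins valued at both times in all 3 panels.

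Both peak types together accounted for all bins as follows. KLF4 and H3K27ac peaks coincided in 246 bins, 193 held KLF4 alone, 582 held H3K27ac alone and 1851, or 64.5% (62.7 to 66.2), held neither. Among bins valued at both times 18.2% held neither. KLF4-bearing bins carried an H3K27ac peak in 56.0% (51.3 to 60.7), and bins without KLF4 in 23.9% (22.2 to 25.7). In bins valued at both times 8157 of the 8857 with KLF4 carried one. The 24 h value itself differed little between bins with and without KLF4, with medians of 3.29 and 3.16.

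Since 24 h-only bins had lower values, the shares were also read within deciles of the 24 h value. In the lowest decile KLF4 was present in 14.1% (11.4 to 17.2) of 24 h-only bins and 35.9% (33.8 to 38.0) of bins valued at both times. In the seventh decile the shares were 15.7% (10.4 to 22.3) and 41.1% (39.1 to 43.1). The gap was present in every decile, and with the comparison bins weighted to the spread of the 24 h-only bins over deciles their KLF4 share was 34.9%. The iPSC H3K27ac share was higher at higher values in both classes. It went from 21.0% in the first to 59.2% in the ninth decile of 24 h-only bins, and from 53.5% to 92.2% in bins valued at both times. In the top decile of 67 bins it was 43.3% (31.2 to 56.0).

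**Figure D3:**
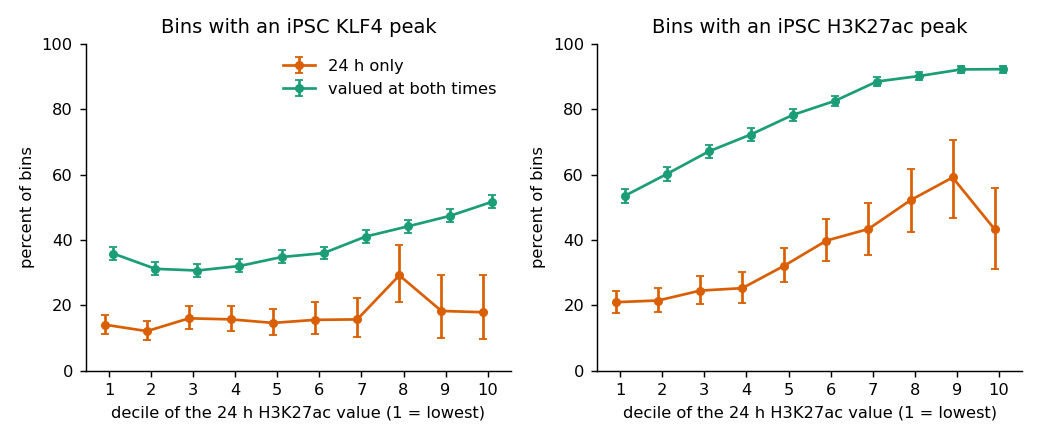
Percent of bins with an iPSC KLF4 peak (left) or an iPSC H3K27ac peak (right) by decile of the 24 h H3K27ac value, for 24 h-only bins and bins valued at both times, with exact 95% intervals. The 24 h-only bins lie lower in each decile for both peak types.

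A gene start lay inside 351 of the 24 h-only bins, 12.2% (11.0 to 13.5), against 25.7% (25.2 to 26.3) of bins valued at both times and 6.94% (6.63 to 7.26) of unvalued bins. Protein-coding gene ends lay within 2 kb of 894, or 31.1% (29.4 to 32.9), against 46.2% (45.5 to 46.8). Most 24 h-only bins therefore held no gene start. KLF4 and gene starts coincided: KLF4 was found in 44.2% (38.9 to 49.5) of 24 h-only bins with a start and in 11.3% (10.1 to 12.6) of those without. The 434 promoters of 386 genes that start in these bins had a median GC content of 60.7%, as did promoters in bins valued at both times. A ratio of observed to expected CpG above 0.6 was seen in 60.4% of them, in 72.4% of promoters in bins valued at both times and in 48.1% of all 21045 protein-coding promoters.

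The motif matches in those promoters can be set beside the sequences above. A KLF core was present in 21.7% (17.9 to 25.8) of the promoters in 24 h-only bins, 22.6% in bins valued at both times and 19.6% of all promoters. The AP-1 letters were present in 6.45% (4.33 to 9.19), 4.77% and 7.04%. The CRE letters, which CREB and ATF factors bind, were present in 1.15% (0.375 to 2.67), 3.23% and 2.26%. A TATA box was present in 8.76% (6.27 to 11.8), 6.64% and 12.7%. For all 4 motifs the interval of the 24 h-only promoters held at least 1 of the 2 background shares. None of the 4 motifs contains another, and several starts of 1 gene are counted separately.

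Most of the bins had no other 24 h-only bin beside them. They formed 2601 runs, of which 2352 were single bins, 230 were pairs, 17 were of 3, 1 was of 4 and 1 of 5. A neighbour valued at 24 h, of either class, was still found for 1630 of them, or 56.8%. The same held for 79.4% of bins valued at both times. A bin valued at 0 h lay directly beside 1347 of the 24 h-only bins, or 46.9% (45.1 to 48.7). The share was 80.2% for bins valued at both times and 53.6% for bins without a value. In the mirrored case, 44.2% of 0 h-only bins lay beside a bin valued at 24 h. A further 965 of the 24 h-only bins lay 20 to 50 kb from a bin valued at 0 h. Another 240 lay 60 to 100 kb away and 320 over 100 kb, up to 3520 kb. Bins listed at 0 h without a value adjoined a 0 h bin in 65.4% (62.9 to 67.8) and bins absent from that list in 26.9% (24.5 to 29.3). Some bins shared their value with a neighbour and are not separate measurements: 136 shared the 24 h value of a bin valued at both times and 190 that of another 24 h-only bin.

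The fourth column of the ESC lists holds a whole number of 1 or more whose meaning is not stated, called the bin score here. It comes from the same contrast as the selection and is described only. The score at 24 h averaged 2.82 in the 24 h-only bins (median 2) and 5.26 in bins valued at both times (median 4). Bins absent at 0 h averaged 1.58, and 883 of them, 64.1%, had a score of 1, the lowest that the list holds. The 1494 bins listed at both times averaged 2.50 at 0 h and 3.97 at 24 h.

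Among those 1494 bins, the score was higher at 24 h in 989, equal in 393 and lower in 112. Higher scores thus made up 66.2%. The same was seen in 22.5% of all 41942 bins listed at both times, in 23.4% of bins valued at both times, in 19.1% of unvalued bins and in 5.27% of 0 h-only bins. A bin valued at 24 h only thus often had the higher score at 24 h too, in lists where lower scores (37.2% of all bins) were more frequent than higher ones. Whether score and value share their source was not tested. The mean difference, 24 h minus 0 h, was 1.47 with an SD over bins of 1.83. It was 1.39 in the 166 bins with KLF4 and 1.48 in the 1328 without, and this difference was not tested.

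**Figure D4:**
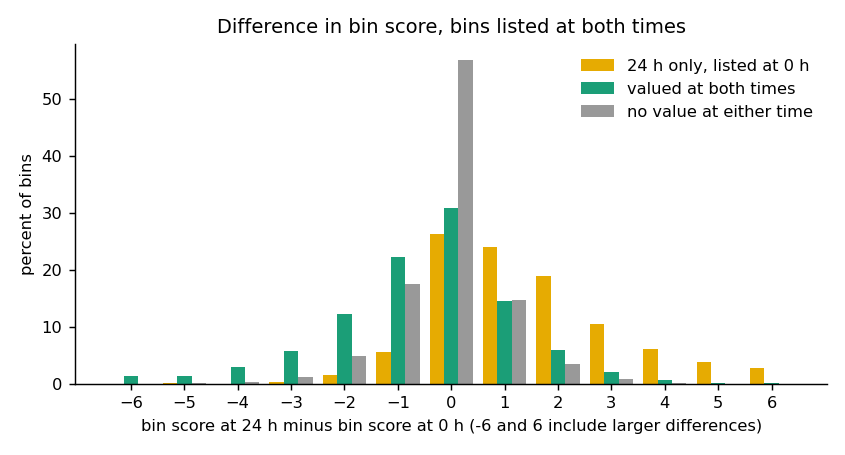
Difference in bin score, 24 h minus 0 h (x axis; differences beyond 6 are pooled at the ends), as percent of bins (y axis) for bins listed at both times. The 24 h-only bins lie to the right of 0 in 66.2%, against 23.4% of bins valued at both times and 19.1% of unvalued bins.

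Among bins valued at both times, 11.8% had a score of 10 or more at 24 h. Of the 24 h-only bins 48, or 1.67%, had one. The highest, 16 at 24 h and 3 at 0 h, was in a bin 88.7 kb before the start of Klf5, inside Pibf1, which encodes a centrosomal protein, with a value of 2.92. Another, 58.7 kb before it, went from 5 to 13 with a value of 3.97. Neither held a KLF4 or H3K27ac peak. Beyond Klf5 a bin ending 151 kb past its start, with 1 peak of each kind, went from 3 to 10. A bin 119 kb before the start, with a KLF4 peak and a value of 4.39, went only from 2 to 4. In Pcx, which encodes pyruvate carboxylase, a bin went from 1 to 13 with a value of 4.23. Near Ina, the gene of the neuronal filament protein alpha-internexin, 2 neighbouring bins went from 5 to 13 and from 2 to 11, and both held H3K27ac peaks. High scores were also held by bins at Kmt5b (15, from 9), Nsd1 (13, from 10) and Rbfox2 (13, from 7), which encode a histone H4 methyltransferase, a histone H3 methyltransferase and a splicing factor. At Cryaa, a lens crystallin gene, the score was 14, from 7. Sf3b2, a spliceosome gene, had a bin that went from 3 to 12. On chromosome 18 a Spire1 bin went from 2 to 12.

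The highest 24 h values lay largely on the X chromosome, where values were higher in general. Bins valued at both times had a median of 7.73 at 0 h and 6.49 at 24 h on the X, against 4.84 and 4.17 on the autosomes. The 70 X-linked 24 h-only bins had a median of 5.05, and the medians of the autosomes ran from 2.92 to 3.31. They made up 10.8% of valued X bins, within the range of 9.18% (chromosome 15) to 14.5% (chromosome 6) on the autosomes. KLF4 was found in 4 of the 70, or 5.71% (1.58 to 14.0), against 15.5% of autosomal 24 h-only bins. In bins valued at both times it was also less frequent on the X, at 27.4% against 39.3% on the autosomes.

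At Prps2, which encodes a phosphoribosyl pyrophosphate synthetase, 3 bins were valued at 24 h only. Their values were 9.06 over the start, 22.2 with the bin centre at 7.87 kb and 16.0 at 27.9 kb. Scores went from 1 to 3, 4 and 2, and none of the 3 held a peak of either kind. The bin next along was valued at both times, at 7.60 and 10.1. A pair of bins far from any gene, with Tmem47 the nearest, shared a value of 14.9 with a score of 1. The bin over the start of Gemin8, a component of the SMN complex, had 10.4 and a score of 2. A bin just before Huwe1, a ubiquitin ligase gene, had 11.8 with 1 KLF4 and 2 H3K27ac peaks, beside a bin with 10.4 at 0 h and 9.66 at 24 h. A bin just upstream of Mbtps2, which encodes the site-2 protease, had 12.5 with a KLF4 peak.

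On the autosomes the highest value was 13.3, in a bin within Plaat3, a phospholipase gene, whose score went from 2 to 6 beside a bin with 10.3 at 0 h and 9.13 at 24 h. Next came bins in Dock1, a Rac exchange factor gene (12.2, 290 kb from any 0 h bin), 145 kb from Irs2, an insulin receptor substrate gene (11.8), in Ppp2r5c, a PP2A subunit gene (11.0), and 61.9 kb from Pax1 (10.4). The Ppp2r5c bin lay among bins with values up to 11.7 at 0 h. The Dock1, Irs2 and Pax1 bins had no score at 0 h and lay 90 to 290 kb from a 0 h bin. Over the start of Irs2 itself a bin had 7.48 at 0 h and was absent from the 24 h list. The autosomal ranking was added after the values had been seen.

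By nearest gene end within 100 kb, 2636 of the bins were assigned to 2147 genes, and 236 had no gene that near. Most genes, 1754, had 1 such bin, and 74 had 3 or more. Chst11, encoding a chondroitin sulfotransferase, had the most, with 6. Their 24 h values, in order along the gene, were 3.17, 2.64, 3.06, 4.12, 4.12 and 3.72. Between them lay 4 bins valued at both times, all with the higher value at 24 h, from 1.74 to 2.64, 2.33 to 3.39, 2.52 to 2.89 and 5.10 to 7.73. The bin at 90.6 kb held 4 KLF4 peaks and the next 1, and 4 of the 6 held H3K27ac peaks.

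Kif15, a mitotic kinesin gene, held the longest run, of 5 adjoining bins from 23.9 to 63.9 kb. Their values were 3.82, 3.64, 3.64, 5.28 and 3.09, and their scores went from 2, 2, 1, 2 and 2 to 6, 4, 4, 6 and 6. None held a KLF4 or H3K27ac peak. The bin over the gene start was level, at 5.08 and 5.04, and the bin between had 3.80 at 0 h and no value at 24 h. Mad1l1, a spindle checkpoint gene, held the run of 4, with values of 4.05, 3.59, 3.92 and 3.92, of which the first and second held H3K27ac peaks.

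Gadd45g, a stress-induced growth arrest gene, had 5 bins. The 3 nearest covered its start and adjoining sequence downstream, with the last bin centred at 18.3 kb. They had values of 3.82, 2.56 and 3.66. Their scores went from 3, 1 and 1 to 11, 7 and 6. The start bin held 1 peak of each kind and the bin at 18.3 kb a KLF4 peak. A bin at 58.3 kb was valued at both times, at 5.91 and 6.22, with a score of 10 at both. On the same chromosome, 3 adjoining bins at S1pr3, a sphingosine phosphate receptor gene, had values of 3.24, 6.60 and 6.60. The last covered the gene start and the others lay before it. All 3 were absent at 0 h, and KLF4 peaks lay in the first and the last.

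Smarcc1, encoding the BAF155 core subunit of BAF remodelling complexes, also had 5 bins. The bin over its start and the bin before it shared a value of 4.68, were absent at 0 h and held 2 and 1 KLF4 peaks. The bin after it had 4.31 with scores of 7 and 6, and 2 bins near the far end had 2.60 and 2.12. The 6 bins between and after were valued at both times and did not share a direction: one at 33.0 kb had 8.50 at 0 h and 2.76 at 24 h, and another at 93.0 kb had 5.22 and 5.96.

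**Figure D5:**
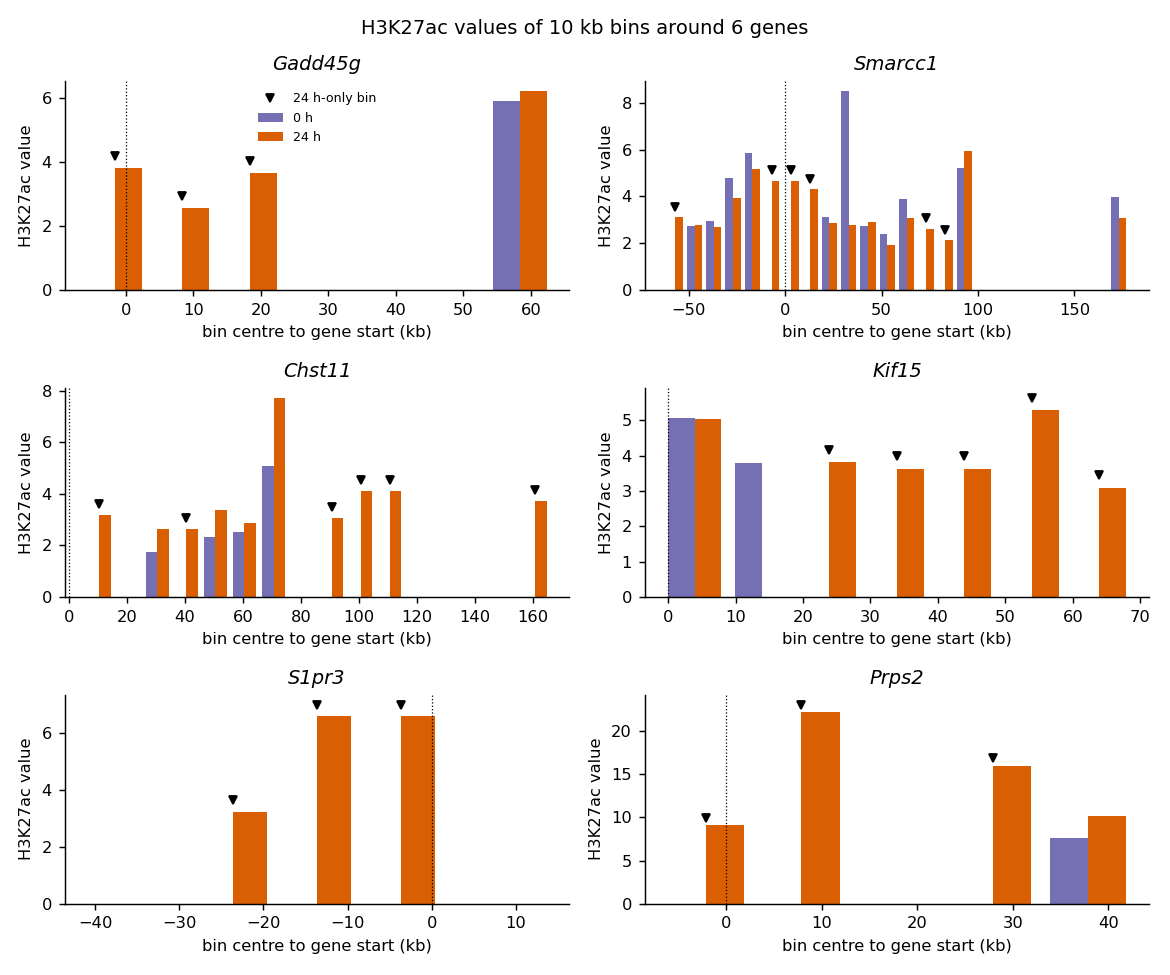
H3K27ac values (y axis, as deposited) at 0 h and 24 h in 10 kb bins around Gadd45g, Smarcc1, Chst11, Kif15, S1pr3 and Prps2, by distance of the bin centre from the gene start in the direction of transcription (x axis, kb). Triangles mark the 24 h-only bins, and missing bars are bins without a value. The y axes differ, with Prps2 reaching 22.2.

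Tnrc6a and Igf2r had the most bins with KLF4, with 3 each. Tnrc6a, which encodes a GW182 protein of microRNA silencing, had 4 bins with values of 3.27, 4.72, 7.64 and 4.04, of which 3 held a KLF4 peak. The bin with 7.64 contains an internal start of the gene. Igf2r, the imprinted receptor gene that clears IGF2, also had 4, with 2.92, 2.92, 2.18 and 2.90, all absent at 0 h, all with an H3K27ac peak and 3 with KLF4. Genes with 2 included Chst11, Smarcc1, Gadd45g, S1pr3 and Arhgef3 and those that follow. Ptpn14, a phosphatase gene of the Hippo pathway, had KLF4 peaks in its start bin (3.57) and at 36.8 kb (5.13). Kcnh1, a potassium channel gene, had them in bins of 5.60 and 6.91. Mpped2 had them in bins of 6.12 and 4.67, and Stard10, a lipid transfer gene, in bins of 5.19 and 2.68. At Mbd2, encoding a methyl-CpG binding protein, 2 bins held KLF4, with 2.76 and 5.40.

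Further genes with 4 bins were Nav2, Znrf2, Shroom3, Atg7 and Arhgef3. Nav2, a neuronal guidance gene, had 2 bins at its far end sharing a value of 7.31. Atg7, the E1-like enzyme gene of autophagy, had 5 bins within 10 kb of the gene with values from 2.32 to 4.76, 4 of them absent at 0 h. Shroom3, whose product drives apical constriction, had values from 2.95 to 5.04. Arhgef3 had 8 bins within 10 kb of the gene, all between 2.73 and 3.69. In 3 of these the score went from 2, 1 and 3 to 9, 10 and 9. Znrf2, a ubiquitin ligase gene, had values from 2.32 to 5.28.

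Across all protein-coding genes with a 24 h value in or within 10 kb of the gene, 2666 of 11887, or 22.4%, had a 24 h-only bin there. The 15 lists of genes examined hold 281 distinct genes, 203 of them with a 24 h value, and 45 (22.2%) had such a bin. The lists as a whole therefore matched the background share at this distance of 10 kb. They were chosen with earlier results of these data known, and no test was made of any list.

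BAF complex genes had a 24 h-only bin in 10 of 18, and these made up 17 of the 81 valued bins around them (21.0%, beside 11.2% of all valued bins). Smarcc1 gave 5 of the 17. Arid1b, a DNA-binding subunit gene, had 3, with values of 5.61, 2.84 and 2.39, the first with KLF4 and H3K27ac peaks. Pbrm1, encoding a bromodomain subunit, had 1 of 3.69, and Bicra had 2, of 3.63 and 1.72. The bin over the far end of Phf10 had 2.91 with both kinds of peak. At Dpf2 the score went from 6 to 12 in a bin of 3.23. Smarca4, the ATPase gene, had 1 bin of 2.68. Bins valued at 0 h only also lay within 10 kb of some of these 10 genes. Smarca4 had 2 of them, and Arid1b, Dpf2 and Ss18 had 1 each. The remaining genes with a 24 h-only bin had none.

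Genes of the FGF and ERK pathway, which drives exit from naive pluripotency, had such a bin in 9 of 24, and these were 10 of 101 valued bins (9.90%). A larger share of genes than the background thus went with a share of bins near it. At Fgfr2, a receptor gene, the 24 h-only bin had 3.34, and 3 bins valued at both times went from 2.71 to 4.85, 2.79 to 3.24 and 2.32 to 5.87. Spred2, an inhibitor of the pathway, had 2 bins, of 2.65 and 4.19. The ETS factor gene Etv4 had 1 of 3.61. Grb2, Sos1, Mapk3, Fos and Sulf1 had 1 bin each, with values from 2.26 to 3.31.

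Of naive pluripotency genes 4 of 21 had a 24 h-only bin, 5 of 89 valued bins (5.62%), and none of these bins held a KLF4 or an H3K27ac peak. The bin within Esrrb had 2.83, among 10 bins valued at both times, of which the highest had 29.7 at 0 h and 24.2 at 24 h. Zfp42, encoding REX1, had 1 of 2.28, and Nr5a2, a nuclear receptor gene, had 2 of 1.83. At Klf4 itself a bin before the start had 2.40, with scores of 2 and 3, beside 7.32 and 5.08 in the start bin. Shared pluripotency genes gave 1 of 14, Jarid2, a Polycomb partner, with 2.46 and 2.87, which were 2 of 57 valued bins (3.51%). Of primed or formative genes 3 of 12 had one: Dnmt3a with 2.19, Sall2 with 3.30 and Etv4, for 3 of 30 valued bins (10.0%). Of the KLF and SP family 2 of 14 had one, for 3 of 52 valued bins (5.77%): Klf7 and Sp3, the latter with 3.21. Klf7 had 2 bins of 4.33 absent at 0 h, while the bin over its start had 9.70 at 0 h and was absent from the 24 h list.

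Among lineage genes, the bin between Krt8 and Krt18, simple epithelial keratin genes, had 5.38 with 1 KLF4 and 3 H3K27ac peaks, and its score went from 1 to 6. With Fgfr2 they made 3 of 10 trophectoderm genes but 2 of 31 valued bins (6.45%), since the keratin genes share 1 bin. Among 19 keratin and junction genes 7 had a bin, for 6 of 49 valued bins (12.2%), including Ocln, a tight junction gene, with 3.66 at the far end of the gene, and Pkp2, a desmosome gene, with 4.62. Of neuroectoderm genes 2 of 6 had one, for 3 of only 9 valued bins (33.3%). Hes5, a Notch target, had 4.54 over its start, and Pax7 had 2.98 and 4.10. None of 6 primitive endoderm and 3 mesendoderm genes had one, with 11 and 4 valued bins. Of 7 fibroblast genes Fbln2, a matrix gene, had 2 bins sharing 3.85, out of 17 valued bins (11.8%).

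Of the p53 and DNA damage response genes, 4 of 23 (17.4%) had a 24 h-only bin, beside 22.4% of all genes with a 24 h value. These were 6 of 76 valued bins (7.89%, beside 11.2% of all valued bins). Gadd45a, a relative of Gadd45g, had 5.33 over its start, the value also held by the neighbouring bin, which had 2.82 at 0 h. Zmat3, a p53 target, had 4.22 and Pmaip1, encoding NOXA, had 2 bins of 2.54. The integrated stress response gave 2 of 15 genes and 2 of 42 valued bins (4.76%). The genes were Psat1 with 4.50 and Mthfd2 with 2.91, both enzymes of serine and one-carbon metabolism. Cytosolic ribosomal protein genes, taken as controls, gave 1 of 20, Rpl27 with 4.72, and 1 of 57 valued bins (1.75%).

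Small RNA genes were also present. Of the microRNA hairpins of RefSeq, 36 lay in 24 h-only bins, 309 in bins valued at both times and 36 in 0 h-only bins. Another 142 lay in bins without a value and 482 outside the listed bins. For comparison, 24 h-only bins made up 11.2% of all bins valued at 24 h. The Mir34b and Mir34c hairpins lie together in 1 bin on chromosome 9 with a value of 3.26, absent at 0 h, with a score of 1, no KLF4 peak and 1 H3K27ac peak. They belong to a family known as p53 targets. Their 3′ arms, at chr9:51103574-51103595 and chr9:51103044-51103065 on the minus strand, are shown because they share 1 seed, bases 2 to 8, in capitals.
mmu-miR-34b-3p: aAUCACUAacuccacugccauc
mmu-miR-34c-3p: aAUCACUAaccacacagccagg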

How the data were processed

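The authors deposited 2 ESC lists of 10 kb bins, for 0 h and 24 h, and 2 iPSC peak lists, which hold positions only. MACS2, bedtools, SAMtools and Bowtie2 are named with mm10, per the submitters' processing notes. Their roles and versions, the combining of replicates and the scaling between times are not given in the sources used here. Which bins lack a value depends on that scaling. The last column of the deposited ESC lists was read as H3K27ac signal, in which 2.225073859e-308 stands for no value, and a bin was valued above 1e-300. The fourth deposited column, a whole-number score, has no stated meaning. Read depth is unknown.

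The lists were joined by bin. Peaks overlapped by at least 1 bp. Shares carry exact (Clopper-Pearson) 95% intervals for counting error only. Genes are the 21631 protein-coding genes of RefSeq for GRCm38.p6, assigned by nearest end within 100 kb. Gene lists used bins touching a gene or 10 kb on each side. Motifs were searched in 21045 promoters. Overlap, distance and interval code was tested on simulated data. Python 3.11.15, numpy 2.4.6, pandas 2.3.3, scipy 1.17.1 and matplotlib 3.10.9 were used.

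The bins and gene lists were chosen with earlier results of these data known. Named genes are the 12 with the most bins, those nearest the 12 highest and 4 lowest values, the 8 with most KLF4-bearing bins, up to 4 per list, and those at the 8 highest scores, 6 largest score differences and 6 longest runs. Some genes that the rule names are not reported here. Other genes, including further BAF and FGF members and the bins around Klf5, were named after their values were seen. Alternatives changed the subset of bins, the overlap rule, the peaks used, the distances and the weighting of the comparison bins.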

Additional observations from a re-analysis of the deposited data

Results flagged for a closer look

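The fifth to ninth columns of the ESC lists hold marks whose meaning is not stated and which entered no comparison above, so the bins marked there are given as values. In the fifth column 72 of the 2872 24 h-only bins were marked, or 2.51% (exact 95% interval 1.97 to 3.15), against 4.09% of bins valued at both times. In the seventh column 306 were marked, or 10.7% (9.55 to 11.8), against 17.99%. In the eighth column 104 were marked, or 3.62% (2.97 to 4.37), against 3.55%. The sixth column marked 2 of these bins, or 0.0696% (0.00843 to 0.251), against 1.95%. The ninth marked 0, for which the exact interval reaches 0.128%, against 1.33%. No list of control samples was used here to set these marks against.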

How the results depend on the processing

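No paired analysis was possible because the lists hold no values per replicate, and leaving out replicates could not be run for the same reason. Every difference from the bins valued at both times kept its direction under every alternative that was run. The main values were a KLF4 share of 15.3% (difference -23.7 points), an H3K27ac share of 28.8% (-49.9), a gene-end share of 31.1% (-15.0) and a mean 24 h score of 2.82 (-2.43). The 1378 bins absent at 0 h gave 19.8% (-19.1), 43.8% (-35.0), 33.5% (-12.7) and 1.58 (-3.67). The bins listed at 0 h gave 11.1% (-27.8), 15.1% (-63.7), 29.0% (-17.2) and 3.97 (-1.29). The 1525 bins with no neighbour valued at 0 h gave 16.9% (-22.0), 33.0% (-45.7), 28.3% (-17.9) and 2.40 (-2.86), and of those listed at both times 75.2% had the higher score at 24 h. The 1528 bins above the first quartile of 24 h values gave an H3K27ac share of 34.8%, a mean score of 2.59 (-3.03) and 69.2% with the higher score. Keeping only peaks at least as wide as the median of their list gave 7.03% (-18.0) for KLF4 and 13.7% for H3K27ac, and counting peaks by their centre gave -48.1 for H3K27ac. Weighting the comparison bins to the deciles of the 24 h value gave -19.6, -40.6, -12.0 and -1.69, and weighting to bin scores gave -19.9 and -44.8. A gene end within 5 kb was found for 38.8%, and a gene start within 2 kb for 17.1%. With 25 kb flanks 68 of 219 list genes (31.05%) had a 24 h-only bin, against 45 of 203 with 10 kb. Among all protein-coding genes the share with 25 kb flanks was 27.6%, 3640 of 13191. The score weighting, gene starts and the score subsets were chosen after seeing the data. The cause of these shifts was not tested.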
